A study of Rattus norvegicus with 30 samples.

Results

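The conjugation enzymes of rat liver were followed here through their messenger RNAs: the UDP-glucuronosyltransferases (UGT), the glutathione transferases (GST) and the sulfotransferases (SULT). A probe set of the array was a member if its only gene symbol in the platform annotation began with Ugt1, Ugt2, Sult, or Gst followed by a, k, m, o, p, t or z. The rule used no measured value, and it found 45 probe sets of 42 genes among the 31099 probe sets of the array. They were 9 probe sets of 8 Ugt2 genes, Gst probe sets of 7 classes (4 alpha, 1 kappa, 7 mu, 2 omega, 2 pi, 4 theta and 1 zeta) and 15 probe sets of 14 Sult genes. No probe set carried a Ugt1 symbol alone: 2 probe sets joined to 8 Ugt1a symbols each fell outside the rule.

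The cells were frozen primary hepatocytes of male Sprague Dawley rats, bought from a supplier, plated on collagen and covered with Matrigel. On culture day 3 they received vehicle or WY-14643 (pirinixic acid), a synthetic ligand of the nuclear receptor PPARα, and the wells were harvested for RNA after 24 h or 48 h. The 6 groups were vehicle (1% DMSO), 8 µM and 200 µM at each time, with 5 wells and 5 arrays in each, 30 arrays in all. The labels do not say whether different wells held cells of different animals, so errors and p-values measure the spread between wells. Whether the treated wells held as much DMSO as the vehicle wells is not certain from the labels. All groups share the freezing, the plating and the culture time before dosing.

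Conjugation makes drugs, hormones, bile pigments and reactive lipids soluble enough to leave the cell. UGTs, in the endoplasmic reticulum, transfer glucuronic acid from UDP-glucuronic acid; GSTs, mostly in the cytosol, attach glutathione to electrophiles; SULTs transfer sulfate from the donor PAPS to phenols and steroids. In liver these enzymes are known to be set by nuclear receptors such as PPARα, CAR and PXR, and by NRF2 and the Ah receptor. PPARα acts as a dimer with RXR and is known above all for inducing genes of fatty acid oxidation.

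Most rat Ugt2 genes of the array lie in one run on chromosome 14 and share a short element close to their start, so the 100 bases before the start are shown for the 6 genes that hold it, and the element is set in capitals. The element is GTTATA followed, after any 2 bases, by TTAA and was chosen after these sequences had been seen. All sequences are from RefSeq on the GRCr8 assembly, read 5′ to 3′ on the strand of the gene. The start is that of the RefSeq promoter table, which for Ugt2b35, Ugt2b10, Gstm7 and Gstp1 lies inside the span annotated for the gene.
Ugt2b (chr14:20985349-20985448, plus strand): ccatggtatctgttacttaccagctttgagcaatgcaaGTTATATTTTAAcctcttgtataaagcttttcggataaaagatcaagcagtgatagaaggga
Ugt2b15 (chr14:21122766-21122865, plus strand): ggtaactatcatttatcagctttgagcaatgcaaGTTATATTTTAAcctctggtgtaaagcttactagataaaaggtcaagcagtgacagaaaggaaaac
Ugt2b35 (chr14:21208341-21208440, plus strand): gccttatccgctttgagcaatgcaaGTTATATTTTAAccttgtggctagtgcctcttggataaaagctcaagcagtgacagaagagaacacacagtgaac
Ugt2b7 (chr14:21251435-21251534, plus strand): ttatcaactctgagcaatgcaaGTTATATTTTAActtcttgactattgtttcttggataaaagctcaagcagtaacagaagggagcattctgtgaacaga
Ugt2b1 (chr14:21378782-21378881, plus strand): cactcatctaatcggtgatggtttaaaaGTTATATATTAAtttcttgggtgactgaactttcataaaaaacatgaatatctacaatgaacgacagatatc
Ugt2b10 (chr14:21462741-21462840, plus strand): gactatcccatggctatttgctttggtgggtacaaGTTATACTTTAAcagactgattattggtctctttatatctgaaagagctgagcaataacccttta
The first base of the element lay between 62 and 78 bases before the start in all 6. Among the 33469 promoter windows of the table, each searched over 250 upstream bases on both strands, 0.0956% held a match, against 15.4% of the 39 windows of 36 member genes. As the element was chosen from these 6 sequences, their matches were fixed in advance, and the difference between the 2 shares is no evidence. Neither window of Ugt2b34l1 held it. A match is a description of letters and not a test of binding.

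The other sequences shown are 3 Gst promoters in which the core of the antioxidant response element, TGACNNNGC, lay within 100 bases of the start. That core is bound by NRF2 with a small Maf protein. It is set in capitals, and a gene of each of 3 Gst classes is given.
Gsta3 (chr9:31154889-31154988, plus strand): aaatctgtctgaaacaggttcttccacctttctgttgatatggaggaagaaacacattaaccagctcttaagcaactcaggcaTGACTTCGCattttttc
Gstm7 (chr2:198260320-198260419, minus strand): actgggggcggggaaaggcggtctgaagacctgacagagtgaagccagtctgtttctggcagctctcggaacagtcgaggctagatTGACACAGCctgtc
Gstp1 (chr1:210769706-210769805, minus strand): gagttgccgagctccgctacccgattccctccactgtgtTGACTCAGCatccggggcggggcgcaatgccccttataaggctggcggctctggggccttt
The core was found over 250 bases in windows of 5 member genes (these 3, Gstm5 and Gstz1), 12.8% of the member windows, and in 10.1% of all windows. The xenobiotic response element core GCGTG was found in 23.1% of member windows and 25.9% of all windows. The direct repeat of AGGTCA with 1 base between the copies, the form bound by PPARα with RXR, had 0 exact matches in member windows and was in 0.0508% of all windows, which says only that these letters are not in these windows.

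Of the 45 probe sets, 40 (37 genes) passed the filter on low signal, which kept 21282 probe sets. Probe sets below the filter were not tested: those of Gsta3l1, Gstm6l, Sult1d1, Sult2a1 and Sult2a2, whose highest signals on any array were 108, 801, 126, 218 and 1007. Sult2a6 passed only through its vehicle wells and is described apart. Signals are the authors' MAS5 values on a linear scale, scaled to a common trimmed mean on every array, and they are not comparable between probe sets. Changes are differences of log2(signal + 16) from a limma fit over all 30 arrays, treated minus vehicle of the same time, and a change is called when its Benjamini-Hochberg adjusted p over the 21282 probe sets is below 0.05. The 2 doses of a time are set against the same vehicle wells, so their comparisons are not independent. As in any bulk sample, fewer cells of a type and less RNA per cell cannot be told apart.

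One array stood apart. Vehicle replicate 4 at 48 h had a median signal of 764, against 383 to 439 on the other 29 arrays, and its median correlation with its group was 0.867, against 0.963 to 0.971 elsewhere. Changes at 48 h are therefore given with and without it for the members described in full and for the others called there. The ratio of the 3′ to the 5′ beta-actin control probe set averaged 3.10 at 8 µM and 3.31 at 200 µM against 2.86 in vehicle at 24 h, and 3.26 and 3.10 against 2.61 at 48 h. The same ratio for GAPDH ran the other way, with means of 1.145 and 1.163 against 1.194 at 24 h, and 1.154 and 1.15 against 1.178 at 48 h. The lowest adjusted p over these 8 exact permutation tests was 0.0762. Hepatocyte markers were high in every group. At 24 h, the summed signal of 8 measured markers out of 9 was 385683 to 452589 in vehicle wells. It was 354761 to 391198 at 8 µM and 369924 to 416577 at 200 µM. At 48 h it was 284179 to 418295 in vehicle, 292157 to 338180 at 8 µM and 302884 to 336087 at 200 µM. In the 4 comparisons 1 of the 8, Cyp2e1, rose and 2, 1, 3 and 3 fell, with Tat among them each time. The summed signal of 19 measured markers of macrophages, stellate cells, endothelium, bile duct and lymphocytes was 17429 to 19728 at 8 µM and 15820 to 17242 at 200 µM against 18765 to 22790 in vehicle at 24 h. At 48 h it was 19939 to 21601 and 17142 to 17869 against 20830 to 24590. The bile duct marker Epcam gave the largest part, with means of 8766 of 20607 in vehicle at 24 h and 11446 of 22702 at 48 h. The rest of the bile duct list was low or missing. Krt7 and Spp1 were below the filter and Sox9 had no probe set of its own. Krt19 averaged 262 in vehicle and 85 at 8 µM after 24 h. As signals are not comparable between probe sets, the sums follow the brightest markers. In the 4 comparisons 2, 4, 4 and 8 of the 19 markers fell, and 1, Cd68, rose at 8 µM after 48 h. Of all probe sets, 10.5%, 10.1%, 15.7% and 13.8% fell, so 2 of 19 was near that share. Of the 32 genes on those lists, 8 were below the filter and 5 had no probe set of their own. The part of these shifts in the results on the conjugation enzymes was not tested.

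At 8 µM after 24 h, 7 of the 40 members rose and 13 fell, against a background of 19.2% of all 21282 probe sets (8.72% up and 10.5% down). At 200 µM after 24 h, 4 rose and 14 fell against a background of 18.8% (8.7% up and 10.1% down). At 48 h the counts were 8 up and 15 down at 8 µM, with 28.5% of all probe sets called (12.8% up and 15.7% down), and 7 up and 14 down at 200 µM, with 26.4% called (12.6% up and 13.8% down). The median change over the members was -0.17, -0.18, -0.22 and -0.20 in these 4 comparisons, and the median over all probe sets was -0.03, -0.02, -0.10 and -0.07. These counts include Sult2a6. Without the deviating vehicle array they were 7 up and 16 down, 7 and 17, 6 and 17, and 7 and 16, with 24.3%, 23.8%, 29.1% and 28.6% of all probe sets called. The array groups did not overlap for 18 members at 8 µM and 22 at 200 µM after 24 h, where 17.8% and 16.8% of all probe sets had groups apart. After 48 h they did not overlap for 15 and 14 members, with 17.4% and 17% of all probe sets apart.

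**Figure D1:**
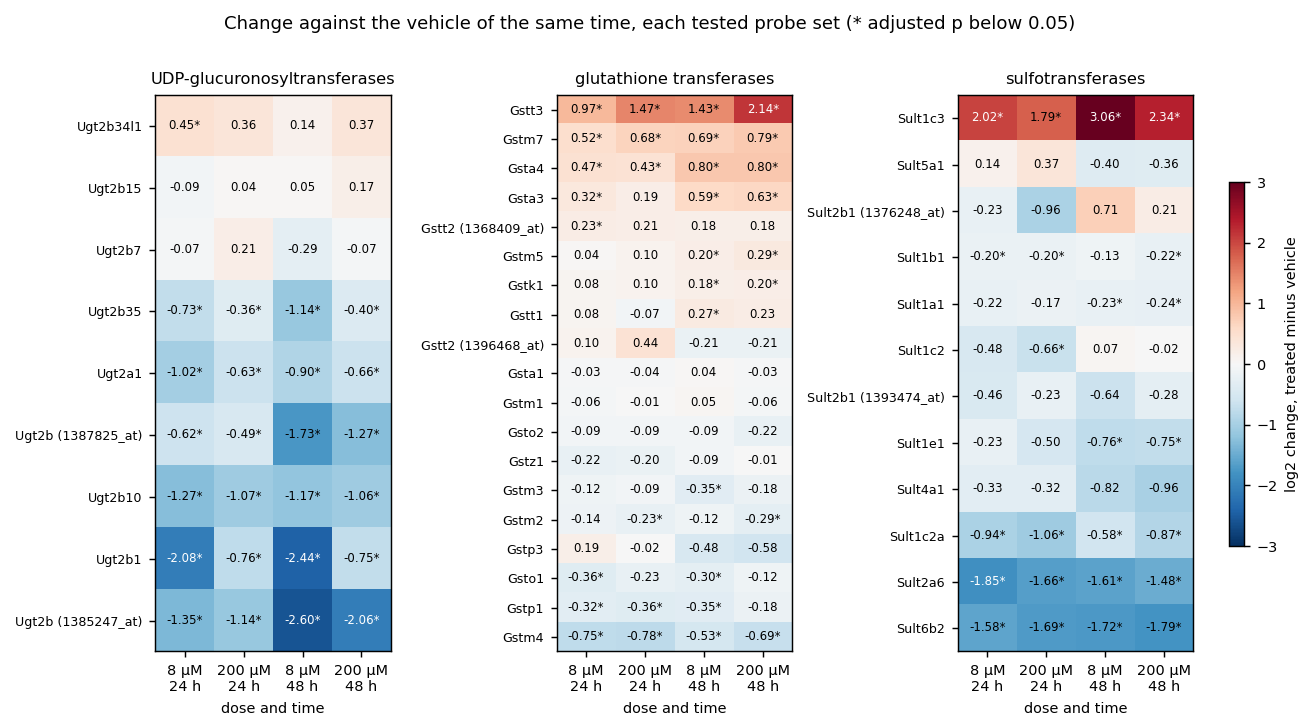
Log2 change, treated minus vehicle of the same time, of each of the 40 tested member probe sets (rows, by enzyme family) at each dose and time (columns); colour and number give the change and an asterisk an adjusted p below 0.05. The Ugt2 panel is mostly below 0, the Gst panel holds small changes on both sides with Gstt3 the highest at 2.14, and the Sult panel runs from -1.79 for Sult6b2 at 200 µM after 48 h to 3.06 for Sult1c3 at 8 µM after 48 h, apart from Sult2a6, which passed the filter through its vehicle wells alone.

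The UGT2 family was mostly lower in treated wells. In each of the 4 comparisons with vehicle, 6 of the 9 probe sets fell: those of Ugt2b1, Ugt2b35, Ugt2b10, Ugt2a1 and both of Ugt2b. The shares of all probe sets that fell were 10.5% and 10.1% after 24 h and 15.7% and 13.8% after 48 h, at 8 µM and 200 µM. One probe set, Ugt2b34l1, rose in a single comparison. The median change over the 9 was -0.73 at 8 µM and -0.49 at 200 µM after 24 h, and -1.14 and -0.66 after 48 h.

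Ugt2b1 (chr14:21378882-21390631), a rat enzyme known to glucuronidate drugs such as morphine, was the member with the largest difference between doses. At 24 h, Ugt2b1 signals were 31166, 33857, 37811, 32937 and 35963 in vehicle wells, 7155, 7886, 9263, 8983 and 7285 at 8 µM and 20856, 16030.3, 20458, 23719.6 and 20738 at 200 µM. At 48 h, Ugt2b1 read 36337, 33840.3, 31354, 19985 and 39675 in vehicle wells, 5380.1, 5571, 5220.0, 6327 and 6559.5 at 8 µM and 17019.9, 16752, 18257, 20066 and 22089 at 200 µM. The 3 groups were apart at 24 h, with the 8 µM wells lowest and the 200 µM wells between them and vehicle; at 48 h the 8 µM wells were again lowest, and the deviating vehicle array lay among the 200 µM wells. The log2 change of Ugt2b1 was -2.08 at 8 µM and -0.76 at 200 µM after 24 h, and -2.44 and -0.75 at the same doses after 48 h (SE 0.12 each; all adjusted p at or below 1.51e-05). These correspond to 4.24-fold and 5.42-fold lower signals at 8 µM and to 1.7-fold and 1.68-fold lower signals at 200 µM. Without the deviating array the changes at 48 h were -2.60 and -0.91.

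Ugt2b35 (chr14:21208389-21245893) had the same order of groups on a smaller scale. At 24 h, Ugt2b35 signals were 39904, 42926, 45138, 40169 and 44159 in vehicle wells, 23088, 26563, 27377, 26115 and 25038 at 8 µM and 34224, 32118, 34715, 32926 and 31536 at 200 µM. At 48 h, Ugt2b35 read 42659.6, 42861, 38632, 31390.1 and 42975 in vehicle wells, 15215, 17936, 16914, 18926 and 21198 at 8 µM and 28251, 28515, 30417, 30422 and 31592 at 200 µM. The groups at 24 h did not overlap, and at 48 h the 8 µM wells lay below all others. Ugt2b35 changed on the log2 scale by -0.73 at 8 µM and -0.36 at 200 µM after 24 h, and -1.14 and -0.40 at the same doses after 48 h (SE 0.08, all adjusted p at or below 0.000681). With that vehicle array left out, it was -1.22 and -0.49 at 48 h.

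Ugt2b (chr14:20985449-21006267) was read by 2 probe sets, and both fell further at 48 h than at 24 h. At 24 h, the higher-numbered of them had signals of 35605, 37949, 39422, 37494 and 39533 in vehicle wells, 23443, 22767, 27574, 26260.4 and 24086 at 8 µM and 28792, 26903, 28776, 28989 and 22573 at 200 µM. At 48 h, that probe set of Ugt2b read 37927, 35502, 31994, 21757 and 37671 in vehicle wells, 7735, 9793, 9055, 10822 and 11573 at 8 µM and 11647, 11731, 13886, 14481 and 15528 at 200 µM. All treated wells lay below all vehicle wells at both times. Its log2 change was -0.62 at 8 µM and -0.49 at 200 µM after 24 h, and -1.73 and -1.27 at the same doses after 48 h (SE 0.11, adjusted p at or below 0.00186). The lower-numbered probe set read 1646, 1726, 2208, 1957 and 2168 in vehicle wells, 587, 651, 859, 934 and 758 at 8 µM and 896, 759, 931, 1035 and 744 at 200 µM after 24 h. After 48 h it read 1722, 1203, 1270.5, 1015 and 1637 in vehicle wells, 199.8, 175, 201, 197 and 284 at 8 µM and 197, 273, 380.0, 412 and 333 at 200 µM. Only 1 of the 5 wells at 8 µM and 3 of the 5 at 200 µM were above the filter signal of 281 there, so its changes at 48 h depend on low signals. They were -1.35 at 8 µM and -1.14 at 200 µM after 24 h, and -2.60 and -2.06 at the same doses after 48 h (SE 0.17, adjusted p at or below 5.78e-06), larger than for the higher-numbered probe set and in the same direction. On the other 29 arrays, the changes at 48 h were -1.88 and -1.42 on the higher-numbered and -2.70 and -2.16 on the lower-numbered probe set.

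Ugt2b10 (chr14:21436939-21483494), whose human namesake glucuronidates tertiary amines, fell to a similar level in all treated groups. At 24 h, Ugt2b10 signals were 3002, 2353, 2810.3, 2489 and 2638 in vehicle wells, 987, 1044, 1153, 1243 and 1049.8 at 8 µM and 1205, 1242, 1337, 1291 and 1177 at 200 µM. At 48 h, Ugt2b10 read 2811, 2663, 2703, 2161 and 2619 in vehicle wells, 1093, 1284, 1069.7, 1059.6 and 1188 at 8 µM and 1027, 1169, 1379, 1166 and 1466 at 200 µM. Treated and vehicle wells did not overlap, while the wells of the 2 doses did. Ugt2b10 changed on the log2 scale by -1.27 at 8 µM and -1.07 at 200 µM after 24 h, and -1.17 and -1.06 at the same doses after 48 h (SE 0.09, adjusted p at or below 6.73e-11). When the deviating array was left out, it was -1.24 and -1.12 at 48 h.

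Ugt2a1 (chr14:20797262-20825111), known in rats for conjugating odorants in the olfactory epithelium, had low signals. At 24 h, Ugt2a1 signals were 911, 851, 834, 763 and 863 in vehicle wells, 482, 423, 268, 379.6 and 544 at 8 µM and 655, 576, 412, 645 and 448 at 200 µM. At 48 h, Ugt2a1 read 688, 743, 869, 982 and 711 in vehicle wells, 320.1, 525, 320.4, 519 and 439.6 at 8 µM and 507, 483, 578, 487 and 438 at 200 µM. The treated wells were below every vehicle well at both times, and 1 well at 8 µM was below the filter signal. Ugt2a1 changed on the log2 scale by -1.02 at 8 µM and -0.63 at 200 µM after 24 h, and -0.90 and -0.66 at the same doses after 48 h (SE 0.17, adjusted p at or below 0.00744). Without the deviating array it was -0.83 and -0.58 at 48 h.

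The 3 other genes of the run did not share this pattern. Ugt2b15, whose human namesake conjugates androgens, had changes of -0.09, 0.04, 0.05 and 0.17 (SE 0.07), none called, those at 48 h being 0.03 and 0.15 without the deviating array, with mean signals of 32671 ± 1131 at 8 µM and 35882 ± 3806 at 200 µM against 34914 ± 2617 in vehicle at 24 h (SD, n = 5 each). Ugt2b7, whose human namesake conjugates morphine, was above the filter signal on 9 of 30 arrays and was not called, with changes between -0.29 and 0.21. Its changes at 48 h, -0.29 and -0.07, turned to 0.07 and 0.30 without the deviating array, the highest vehicle well, and were not called there. Ugt2b34l1 rose at 8 µM after 24 h by 0.45 (SE 0.16, adjusted p = 0.0454), with overlapping groups. At 200 µM after 48 h it differed by 0.37 (adjusted p = 0.0863), and by 0.46 without the deviating array (adjusted p = 0.0314). The Ugt2 genes span chr14:20797262-21524095 in the order Ugt2a1, Ugt2b, Ugt2b15, Ugt2b35, Ugt2b7, Ugt2b1, Ugt2b10 and Ugt2b34l1. Ugt2b15 and Ugt2b7 therefore lay between genes that fell, while Ugt2b34l1 was the last of the run. Ugt2b7 was near the filter signal, where a decrease could hardly be seen. Ugt2b15 and Ugt2b7 hold the same element as Ugt2b1 in the windows printed above. Probe sequences were not used here, and how far a probe set reads a close paralog was not tested.

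The 2 probe sets joined to 8 Ugt1a symbols each stand for genes whose transcripts share their last exons and which include the bilirubin-conjugating Ugt1a1. They rose at 8 µM after 48 h, by 0.26 and 0.23 (adjusted p = 0.0252 and 0.0198), with overlapping wells. In the other 3 comparisons with vehicle they differed by at most 0.11 and were not called. With that vehicle array left out, their lowest vehicle well, the changes at 8 µM after 48 h were 0.13 and 0.14 and were not called (adjusted p = 0.079 and 0.0583).

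**Figure D2:**
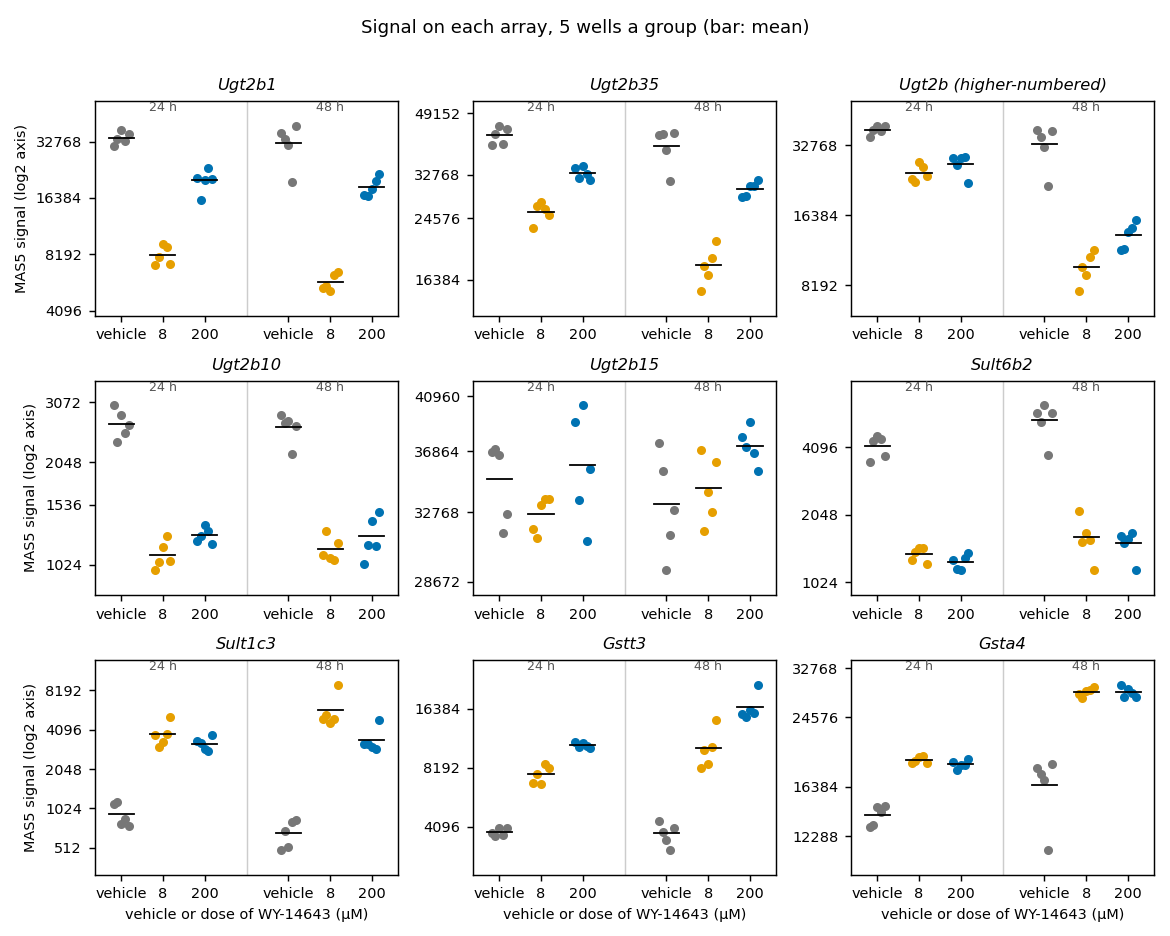
MAS5 signal (log2 axis) on each of the 30 arrays for 9 members, with 24 h left and 48 h right of the grey line and vehicle, 8 µM and 200 µM in that order; points are wells and bars are group means. Ugt2b1 and Ugt2b35 are lowest at 8 µM, Ugt2b10 and Sult6b2 are at similar levels at both doses, Ugt2b15 overlaps in all groups at 24 h, and Sult1c3, Gstt3 and Gsta4 are above vehicle in every treated well.

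The SULT family held the largest increase among the members, in Sult1c3, and decreases of Sult6b2 and Sult1c2a. Of its 12 tested probe sets, 1 rose in each of the 4 comparisons, and 4, 5, 5 and 6 fell at 8 µM and 200 µM after 24 h and at 8 µM and 200 µM after 48 h. These counts include Sult2a6. In the same order, 8.72%, 8.7%, 12.8% and 12.6% of all probe sets rose and 10.5%, 10.1%, 15.7% and 13.8% fell. The 1 of 12 that rose was thus near or below the share over all probe sets.

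Sult1c3 (chr9:7548839-7594299) belongs to the SULT1 family of phenol sulfotransferases. At 24 h, Sult1c3 signals were 1099, 1157, 774, 855 and 755 in vehicle wells, 3754, 3020.0, 3317, 3818 and 5111 at 8 µM and 3364, 3266, 2923, 2805 and 3707 at 200 µM. At 48 h, Sult1c3 read 494, 687, 519, 805 and 831 in vehicle wells, 4921, 5275, 4609.9, 4915 and 9017 at 8 µM and 3200.2, 3172, 3024, 2933 and 4835 at 200 µM. Every treated well was above every vehicle well at both times, and replicate 5 was the highest of its group at both doses at 48 h. Sult1c3 changed on the log2 scale by 2.02 at 8 µM and 1.79 at 200 µM after 24 h, and 3.06 and 2.34 at the same doses after 48 h (SE 0.17, adjusted p at or below 5.88e-10), and 3.13 and 2.42 at 48 h without the deviating array. The first values correspond to 4.04-fold and 3.46-fold at 24 h and 8.34-fold and 5.07-fold at 48 h.

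Its neighbours on chromosome 9 did not rise with it. Sult1c2a, Sult1c2 and Sult1c3 lie in that order within chr9:7075873-7594299. At 24 h, Sult1c2a signals were 2162, 2325, 2036, 2143 and 2003 in vehicle wells, 1475, 908, 1140.0, 1189.8 and 895 at 8 µM and 1132, 976, 777, 1288 and 961 at 200 µM. At 48 h, Sult1c2a read 2301, 2426, 2919, 3121 and 1848 in vehicle wells, 1887, 1687, 1822, 1385 and 1547 at 8 µM and 1523, 1469.9, 1132, 1494 and 1182 at 200 µM. Sult1c2a was below all vehicle wells in every treated well at 24 h and at 200 µM after 48 h, and overlapped vehicle at 8 µM after 48 h. Its log2 change was -0.94 at 8 µM and -1.06 at 200 µM after 24 h, and -0.58 and -0.87 at the same doses after 48 h (SE 0.14, adjusted p at or below 0.00161), and -0.50 and -0.79 at 48 h without the deviating array. Sult1c2 was near the filter signal, which at 24 h was passed by 0 of 5 wells at 8 µM and 0 of 5 at 200 µM against 3 of 5 vehicle wells. It was called lower at 200 µM after 24 h (adjusted p = 0.0383), where the size of the change is not given because the treated wells were below the filter. At 48 h its changes of 0.07 and -0.02 were not called, nor were those of 0.24 and 0.15 without the deviating array. A probe set shared by Sult1c2 and RGD1562392, outside the rule, had changes of -0.70, -0.44, -0.25 and -0.44, called at 8 µM after 24 h and at 200 µM after 48 h. Without the deviating array the call at 48 h was lost (-0.39, adjusted p = 0.0821), and 200 µM after 24 h was called (adjusted p = 0.0424).

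Sult6b2 (chr4:177476813-177495377), a little-studied sulfotransferase, fell to about the same level at both doses. At 24 h, Sult6b2 signals were 3525, 4358, 4578, 4473 and 3733 in vehicle wells, 1293, 1393, 1465, 1455 and 1237 at 8 µM and 1295, 1170.0, 1159, 1320.4 and 1388 at 200 µM. At 48 h, Sult6b2 read 5786, 5286, 6276, 3779 and 5800.2 in vehicle wells, 2132, 1551, 1702, 1586 and 1163 at 8 µM and 1647, 1534, 1605, 1707 and 1164 at 200 µM. All treated wells were below all vehicle wells. Sult6b2 changed on the log2 scale by -1.58 at 8 µM and -1.69 at 200 µM after 24 h, and -1.72 and -1.79 at the same doses after 48 h (SE 0.13, adjusted p at or below 7.82e-12), and -1.84 and -1.92 at 48 h without the deviating array.

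Sult2a6 (chr1:84046685-84097808) belongs to the hydroxysteroid sulfotransferases, which act on bile acids and steroids. At 24 h, Sult2a6 signals were 769, 517, 658, 612 and 801 in vehicle wells, 174, 158, 142, 168 and 234 at 8 µM and 190.2, 133, 217, 191 and 295 at 200 µM. At 48 h, Sult2a6 read 620.4, 404, 380.2, 889 and 684 in vehicle wells, 151, 228, 191, 113 and 213 at 8 µM and 268, 196, 234, 140.4 and 153 at 200 µM. All 10 vehicle wells were above the filter signal of 281, against 1 of the 20 treated wells. The probe set entered the test through its vehicle wells alone, so a difference was bound to appear and the fitted changes of -1.85, -1.66, -1.61 and -1.48 (SE 0.25) are given as a description, as are those of -1.46 and -1.32 at 48 h without the deviating array. Its relatives Sult2a1 and Sult2a2 were below the filter.

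The remaining SULT genes moved less than Sult1c3 and Sult6b2. Sult1a1, the main phenol sulfotransferase of liver, fell at 48 h by 0.23 at 8 µM and 0.24 at 200 µM (SE 0.08, adjusted p = 0.0338 and 0.0334) and differed by -0.22 and -0.17 at 24 h. When the deviating array was left out, it fell at 48 h by 0.34 at both doses (adjusted p = 2.15e-05 and 2.05e-05). Sult1b1 (chr14:20771917-20784665), which sulfonates thyroid hormones and lies beside the Ugt2 run, fell at 24 h at both doses and at 200 µM after 48 h, by 0.20 to 0.22 (adjusted p = 0.0403, 0.0498 and 0.0164). On the other 29 arrays, Sult1b1 fell at both doses after 48 h, by 0.22 and 0.32 (adjusted p = 0.000519 and 4.45e-06). Sult1e1, the oestrogen sulfotransferase, fell at 48 h by 0.76 and 0.75 (SE 0.18, adjusted p = 0.00166 and 0.00198), with overlapping wells, and by 0.61 and 0.60 without the deviating array. Sult5a1, Sult4a1, known from brain, and the 2 probe sets of Sult2b1, a cholesterol sulfotransferase, were not called, with changes between -0.96 and 0.71. The widest of these ranges belonged to Sult2b1 and Sult4a1 probe sets with SE of 0.36 to 0.47. The lowest adjusted p was 0.0656 for Sult5a1, at 8 µM after 48 h, and 0.0703 for Sult4a1, at 200 µM after 48 h. On the other 29 arrays, the change of Sult5a1 was -0.16 instead of -0.40 (adjusted p = 0.35) and that of Sult4a1 -0.74 instead of -0.96 (adjusted p = 0.188).

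The GST probe sets moved in both directions and mostly by little. Of 19 tested, 5 rose and 3 fell at 8 µM after 24 h, 3 rose and 3 fell at 200 µM after 24 h, 7 rose and 4 fell at 8 µM after 48 h, and 6 rose and 2 fell at 200 µM after 48 h. In the same order, 8.72%, 8.7%, 12.8% and 12.6% of all probe sets rose and 10.5%, 10.1%, 15.7% and 13.8% fell. The 2 of 19 that fell at 200 µM after 48 h were below the share over all probe sets. The theta and alpha classes held increases and no called decrease in the 4 comparisons, and the mu class held both.

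Gstt3 (chr20:12873618-12881974), of the theta class, which acts on small halogenated compounds, rose more at the higher dose. At 24 h, Gstt3 signals were 3791, 3684, 4015, 3718 and 4015 in vehicle wells, 6868, 7555, 6763, 8549 and 8192 at 8 µM and 11083, 10406, 10882, 10585 and 10274 at 200 µM. At 48 h, Gstt3 read 4392, 3824, 3517, 3116 and 4034 in vehicle wells, 8133, 10087, 8565, 10499 and 14326 at 8 µM and 15362, 14830.2, 16190.1, 15627 and 21666 at 200 µM. The 3 groups were apart at both times, in the order vehicle, 8 µM, 200 µM. Gstt3 changed on the log2 scale by 0.97 at 8 µM and 1.47 at 200 µM after 24 h, and 1.43 and 2.14 at the same doses after 48 h (SE 0.11, adjusted p at or below 1.67e-08), or 1.96-fold, 2.76-fold, 2.69-fold and 4.4-fold. On the other 29 arrays, the changes at 48 h were 1.36 and 2.07. Its neighbours in chr20:12819053-12881974 moved less. Gstt1 rose at 8 µM after 48 h by 0.27 (adjusted p = 0.0259), and differed by 0.17 without the deviating array (adjusted p = 0.113). Gstt2 rose at 8 µM after 24 h by 0.23 on the lower-numbered of its probe sets (adjusted p = 0.0291), while the other was not called, with changes between -0.21 and 0.44.

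Of the alpha class, Gsta4 (chr8:87947247-87964490), known for clearing the lipid peroxidation product hydroxynonenal, rose in all treated groups. At 24 h, Gsta4 signals were 12989, 13108, 14587, 14149 and 14620.0 in vehicle wells, 18850.0, 19082, 19454, 19631 and 18809 at 8 µM and 18981, 18094, 18606, 18559.9 and 19229 at 200 µM. At 48 h, Gsta4 read 18321, 17615, 16997, 11343 and 18702 in vehicle wells, 28087, 27528, 28695, 28820.3 and 29416 at 8 µM and 29692, 27700.0, 28971, 28373 and 27696 at 200 µM. Treated and vehicle wells did not overlap, and the 2 doses did. Gsta4 changed on the log2 scale by 0.47 at 8 µM and 0.43 at 200 µM after 24 h, and 0.80 and 0.80 at the same doses after 48 h (SE 0.08, adjusted p at or below 9.43e-05), and 0.67 and 0.67 at 48 h without the deviating array, the lowest vehicle well.

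Gsta3 (chr9:31154989-31180653) was higher at both doses after 48 h. At 24 h, Gsta3 signals were 11533, 11612, 14651, 13094 and 13547 in vehicle wells, 15665, 17353, 16603, 16811 and 14114 at 8 µM and 14688, 14748, 15023, 14418 and 14225 at 200 µM. At 48 h, Gsta3 read 16797, 17641, 17118, 12644 and 17696 in vehicle wells, 24002, 22818, 24683, 24828 and 26362 at 8 µM and 25639, 25586, 24945, 24411 and 25249.9 at 200 µM. The wells overlapped at 24 h and were apart at 48 h. The log2 change was 0.32 at 8 µM (adjusted p = 0.00124) and 0.19 at 200 µM (adjusted p = 0.0771) after 24 h, and 0.59 and 0.63 after 48 h (SE 0.07, adjusted p at or below 8.95e-08). When the deviating array was left out, the changes at 48 h were 0.50 and 0.54. Gsta1 was not called, with changes between -0.04 and 0.04. A probe set shared by Gsta5 and Gsta2, outside the rule, rose at 48 h by 0.31 at 8 µM and 0.60 at 200 µM (adjusted p = 0.0193 and 1.65e-05), and its changes at 24 h were -0.15 and 0.09. Without the deviating array the changes at 48 h were 0.17 (adjusted p = 0.0847) and 0.46 (adjusted p = 1.04e-05).

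In the mu class, which conjugates epoxides and other electrophiles, genes of the same run on chromosome 2 moved in opposite directions. Gstm7 (chr2:198254872-198260365) had signals at 24 h of 2790.3, 2487, 2781, 2344 and 2968 in vehicle wells, 3669, 3653, 3844, 3856 and 4064 at 8 µM and 4371, 4344, 4064, 3969 and 4662 at 200 µM. At 48 h, Gstm7 signals were 3541, 3811, 3496, 3152 and 4158 in vehicle wells, 4875, 5703, 5477, 5727 and 7851 at 8 µM and 6171, 6041, 5895, 5719 and 7729.9 at 200 µM. Every treated well was above every vehicle well at both times. Gstm7 changed on the log2 scale by 0.52 at 8 µM and 0.68 at 200 µM after 24 h, and 0.69 and 0.79 at the same doses after 48 h (SE 0.09, adjusted p at or below 8.4e-05). With that vehicle array left out, it was 0.64 and 0.74 at 48 h.

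Gstm4 (chr2:198356114-198373487) fell. At 24 h, Gstm4 signals were 16153, 16586, 18264, 16899 and 17855 in vehicle wells, 9826, 9807, 10955, 9693 and 10516 at 8 µM and 10341, 10239, 9684, 9463 and 10135 at 200 µM. At 48 h, Gstm4 read 15141, 16895, 15950.0, 11999 and 18214 in vehicle wells, 10343, 11126, 10779.7, 10455 and 10939 at 8 µM and 10032, 9029.8, 9268, 9357 and 10487 at 200 µM. Every treated well was below every vehicle well. Gstm4 changed on the log2 scale by -0.75 at 8 µM and -0.78 at 200 µM after 24 h, and -0.53 and -0.69 at the same doses after 48 h (SE 0.07, adjusted p at or below 3.4e-07), and -0.62 and -0.78 at 48 h without the deviating array. Among the others, Gstm5 rose at 48 h by 0.20 and 0.29, with wells apart, and by 0.15 and 0.24 without the deviating array. Gstm2 fell at 200 µM, by 0.23 at 24 h and 0.29 at 48 h (adjusted p = 0.0155 and 0.00141), and Gstm3 fell at 8 µM after 48 h by 0.35 (adjusted p = 0.00902). With that vehicle array left out, Gstm2 fell at 48 h by 0.21 at 8 µM as well and by 0.38 at 200 µM (adjusted p = 0.000778 and 8.74e-08), and Gstm3 by 0.41 at 8 µM (adjusted p = 0.00176). Gstm1 was not called, with changes between -0.06 and 0.05. Within chr2:198219769-198373487 the tested genes lie in the order Gstm5, Gstm7, Gstm3, Gstm2, Gstm1 and Gstm4. The called increases were of the first 2 genes of this order and the called decreases of genes further along it.

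**Figure D3:**
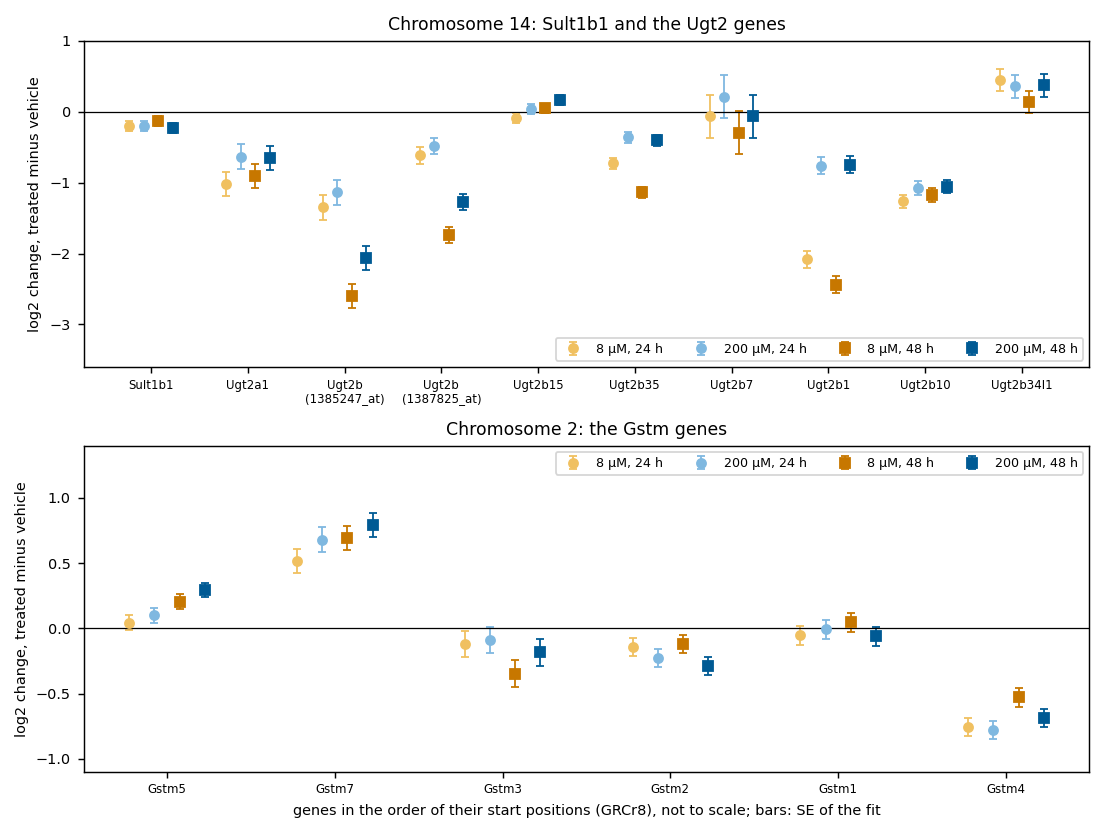
Log2 change, treated minus vehicle of the same time, with SE of the fit (bars), of the tested genes of 2 clusters in the order of their starts; circles are 24 h, squares 48 h, orange 8 µM and blue 200 µM. On chromosome 14 Ugt2b15 and Ugt2b7, with changes between -0.29 and 0.21, lie between genes that fell; on chromosome 2 Gstm5 and Gstm7 lie above 0 and Gstm4 below, at -0.78 at 200 µM after 24 h.

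The classes with 1 or 2 probe sets changed by less than 0.4 where called. Gsto1, of the omega class, which reduces dehydroascorbate, had signals at 24 h of 18156, 19622, 20321, 20074 and 21804 in vehicle wells, 14557, 16368, 16469, 14677 and 15519 at 8 µM and 15583, 18134, 17807, 17318 and 16619.5 at 200 µM. At 48 h, Gsto1 signals were 20725, 20727, 21249, 13749 and 21085 in vehicle wells, 15850.3, 14825, 16923, 16011 and 14481 at 8 µM and 18360.3, 17919, 16288, 18931 and 17168 at 200 µM. Treated wells were below vehicle wells at 24 h; at 48 h they were below 4 of 5 vehicle wells and the deviating array was the lowest well of all. Gsto1 fell by 0.36 at 8 µM after 24 h and by 0.30 at 8 µM after 48 h (SE 0.08, adjusted p = 0.00118 and 0.0051), and at 200 µM the changes were -0.23 and -0.12 (adjusted p = 0.0544 and 0.312), the last of which was 0.05 after median centring. On the other 29 arrays, it was -0.43 and -0.24 at 48 h, both called (adjusted p = 2.13e-07 and 0.000929), and at 200 µM after 24 h it was called too (adjusted p = 0.00126).

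Gstp1 (chr1:210767237-210770242), the placental form used as a marker of preneoplastic foci in rat liver, was slightly lower. At 24 h, Gstp1 signals were 26019, 25209, 25137, 23389 and 25918 in vehicle wells, 18366, 21136, 19581, 19522 and 22035 at 8 µM and 19057, 21517, 20412, 16519 and 21053 at 200 µM. At 48 h, Gstp1 read 25874, 31093, 28097, 19425 and 24632 in vehicle wells, 19229, 19149, 20741, 21399.6 and 19949 at 8 µM and 23115, 22453, 22794, 23518 and 21102 at 200 µM. Wells were apart at 24 h and overlapped at 48 h. Gstp1 fell by 0.32 and 0.36 at 24 h and by 0.35 at 8 µM after 48 h (SE 0.08, adjusted p at or below 0.00389), and the change at 200 µM after 48 h was -0.18 (adjusted p = 0.118). When the deviating array was left out, the changes at 48 h were -0.44 and -0.27 (adjusted p = 2.51e-06 and 0.00168).

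Gstk1, the kappa enzyme of mitochondria and peroxisomes, had signals at 24 h of 21825, 23735, 23835, 22738 and 22092 in vehicle wells, 21465, 23745, 24745, 23958 and 26989 at 8 µM and 23876, 24922, 25143, 23239 and 25111 at 200 µM. At 48 h, Gstk1 signals were 14759, 15304, 15547, 12322 and 17009 in vehicle wells, 17146, 17913, 17489.7, 15670.2 and 16174 at 8 µM and 17944, 18268, 17042, 16800.3 and 15659.5 at 200 µM. The wells of treated and vehicle groups overlapped throughout. Gstk1 rose at 48 h by 0.18 and 0.20 (SE 0.07, adjusted p = 0.0427 and 0.0231). Without the deviating array these were 0.11 and 0.13 and not called (adjusted p = 0.15 and 0.0776).

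Gstz1, the zeta enzyme of tyrosine breakdown, was not called against vehicle. At 24 h, Gstz1 signals were 12313, 12975, 11865, 10663 and 12338 in vehicle wells, 10418, 10059.6, 9906, 10509 and 10822 at 8 µM and 10631, 12191, 10127, 9252 and 10414 at 200 µM. At 48 h, Gstz1 read 9520.2, 9342, 9254, 9084 and 10522 in vehicle wells, 7397, 9737, 8402, 8777 and 10727 at 8 µM and 9051, 10399, 8927, 8654 and 10569 at 200 µM. The wells overlapped at both times. Its changes were -0.22 and -0.20 at 24 h and -0.09 and -0.01 at 48 h (SE 0.08), and those at 48 h were -0.11 and -0.02 without the deviating array and 0.10 and 0.16 after median centring of the arrays. Gsto2 and Gstp3 were not called, with changes between -0.58 and 0.19.

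The doses were then compared directly, which uses no vehicle well. Few members differed: 3 were higher and 0 lower by the limma test at 200 µM than at 8 µM after 24 h (5 and 0 at an unadjusted p below 0.05), with 1.98% of all probe sets called (0.883% higher and 1.09% lower), and 4 were higher and 1 lower after 48 h, with 3.01% called (1.38% higher and 1.63% lower). The wells of the 2 doses did not overlap for 3 members at 24 h and 5 at 48 h, where 5.3% and 6.06% of all probe sets had doses apart. Ugt2b1 was higher at 200 µM by 1.32 at 24 h and 1.69 at 48 h (SE 0.12, adjusted p = 3.44e-08 and 8.07e-11), which is 2.5-fold and 3.23-fold. Ugt2b35 was higher by 0.37 and 0.73 (adjusted p = 0.00457 and 8.15e-08). Both genes were thus less reduced at the higher dose, with the wells of the 2 doses apart at each time. Gstt3 was higher by 0.49 and 0.71 (adjusted p = 0.00874 and 6.75e-05), and for this gene the higher dose was farther from vehicle. At 48 h, Ugt2b on the higher-numbered probe set was higher by 0.46 (adjusted p = 0.018) and its other probe set by 0.53 (adjusted p = 0.101). Sult1c3 was lower at 200 µM after 48 h by 0.72 (SE 0.17, adjusted p = 0.013), with overlapping wells. Without the deviating vehicle array, which enters here only through the shared spread, 6 members were higher and 2 lower at 48 h: Gsto1 (0.18) and the lower-numbered Ugt2b probe set joined those higher and Gstm2 (-0.17) those lower.

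**Figure D4:**
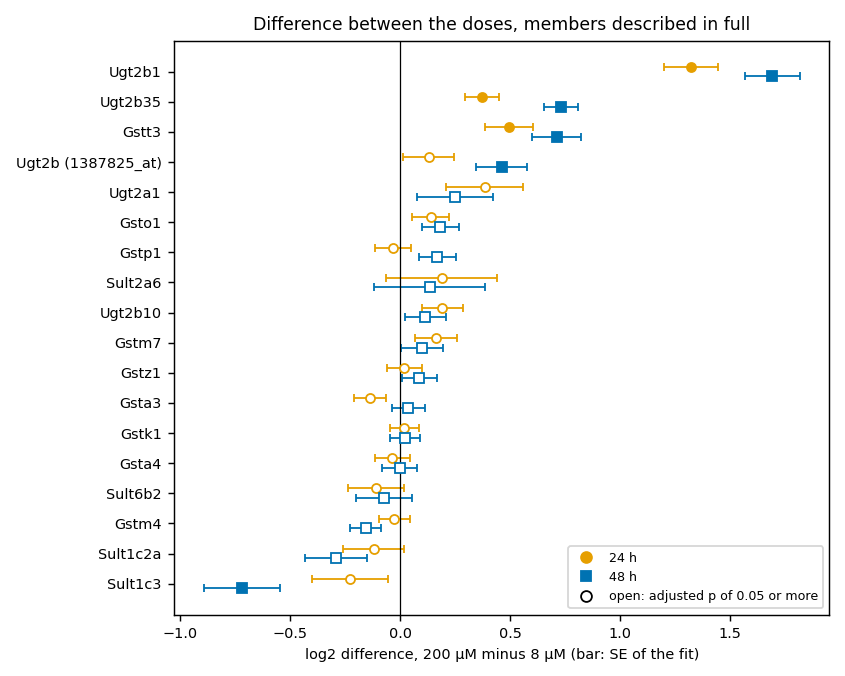
Log2 difference, 200 µM minus 8 µM, with SE of the fit (bars), for the 18 members described in full; circles are 24 h, squares 48 h, and filled symbols have an adjusted p below 0.05. Ugt2b1 is the farthest to the right at 1.32 and 1.69, and Sult1c3 at 48 h the farthest to the left at -0.72.

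The change of an effect from 24 h to 48 h was tested as a difference of differences. At 8 µM, 1 member had a higher effect at 48 h and 3 a lower one, with 1.78% of all probe sets called (1% up and 0.775% down). At 200 µM there were 2 of each, with 1.5% called (0.785% up and 0.714% down). Ugt2b fell further at 48 h on both probe sets, by 1.12 on the higher-numbered and 1.25 on the lower-numbered one at 8 µM (SE 0.16 and 0.25), and by 0.79 and 0.92 at 200 µM. Ugt2b35 fell further at 8 µM by 0.41 (SE 0.11, adjusted p = 0.0443). The effect on Sult1c3 at 8 µM was higher at 48 h by 1.04 (SE 0.24, adjusted p = 0.0155). At 200 µM, the effects on Gstt3 and Gsta3 were higher by 0.67 and 0.44 (adjusted p = 0.0177 and 0.0209). With that vehicle array left out, Ugt2b1 at 8 µM (-0.52, adjusted p = 0.0258) and Gsta4 at both doses (0.21 and 0.24, adjusted p = 0.0294 and 0.01) were called as well. In that setting the effect on Gsta3 at 200 µM was 0.35 (adjusted p = 0.00957).

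Between 24 h and 48 h, 6 members moved in vehicle wells, of which Gstp3 and Gstz1 were not called in any of the 4 comparisons of treated wells with vehicle. Longer culture and longer exposure to the vehicle cannot be told apart here. In vehicle wells, 2 members were higher and 4 lower at 48 h than at 24 h, with 6.59% of all probe sets called (3.17% up and 3.42% down), and the wells of 5 members did not overlap, with 5.17% of all probe sets apart. Gstp3, a pi-class gene, ranged over 126 to 553 at 48 h against 1036 to 1620.1 at 24 h, a change of -2.34 (SE 0.34, adjusted p = 1.6e-05). Sult1e1 ranged over 452 to 1233 against 1476 to 2039, a change of -1.03 (SE 0.18, adjusted p = 0.000263). Gstk1 and Gstz1 fell by 0.61 and 0.33, while Gstm7 and Gsta3 rose by 0.44 and 0.34 (adjusted p at or below 0.00729). On the other 29 arrays, Gsta4 (0.37) and Sult6b2 (0.49) were also called higher at 48 h.

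The genes around these enzymes were taken from lists written from textbook knowledge, with 1 probe set per gene, and are given in the order 8 µM and 200 µM after 24 h, then 8 µM and 200 µM after 48 h. In the same order, 19.2%, 18.8%, 28.5% and 26.4% of all probe sets were called. Of the genes known to respond to PPARα, all 15 measured of 20 rose in each comparison, for example Pdk4, a kinase that restrains pyruvate oxidation, by 3.47, 3.66, 3.50 and 3.56. The other receptor lists held calls in both directions. Of 20 measured of 22 NRF2 response genes, 3, 1, 7 and 5 rose and 6, 7, 4 and 5 fell, with median changes of -0.13, -0.12, 0.12 and 0.05. Without the deviating array, 6 rose and 6 fell at 8 µM after 48 h, with a median of 0.05. At 200 µM after 48 h in that setting, 4 rose and 6 fell, with a median of -0.01. Me1, the cytosolic malic enzyme, rose by 1.30, 1.06, 2.00 and 1.58, while most called genes of this list fell at 24 h. Of 10 measured of 15 CAR and PXR response genes, 1, 0, 2 and 2 rose and 3, 2, 4 and 3 fell, with medians of -0.13, 0.03, 0.11 and 0.04. The other 5 genes of that list had no probe set of their own. The 2 of 10 called at 200 µM after 24 h are near the share over all probe sets. Without the deviating array, 2 rose and 3 fell there, with 23.8% of all probe sets called. At 48 h in that setting, 3 rose at each dose and 4 and 3 fell, with medians of -0.01 and -0.08. Cyp2c11, a male-specific P450 of rat liver, fell by 0.85, 0.63, 2.96 and 1.68. Alas1 of the same list had changes of -0.25, 0.23, 0.54 and 0.74, called lower in the first and higher at both doses after 48 h. Of 6 measured of 7 Ah receptor response genes, 0, 0, 1 and 1 rose and 2, 2, 2 and 3 fell, with medians of -0.11, -0.16, -0.90 and -0.58. Without the deviating array, 1 of the 6 rose and 3 fell at each dose after 48 h, with medians of -0.57 and -0.555. Cyp1a2, a P450 that oxidises aromatic amines, fell by 0.72, 0.67, 1.74 and 1.57. Of 6 measured of 8 genes on the list of microsomal glutathione transferases, 1, 0, 1 and 0 rose and 1, 1, 2 and 0 fell, with medians of -0.05, -0.01, -0.01 and -0.09. That is 1 of 6 at 200 µM after 24 h, near the share over all probe sets, and 0 of 6 at 200 µM after 48 h, below it. Without the deviating array, 1 of the 6 rose and 1 fell at 200 µM after 48 h, with 28.6% of all probe sets called. The medians at 48 h were then 0.08 and -0.08.

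Ugp2, Papss2 and Cth, each from a different route of cofactor supply, were lower in treated wells. For UDP-glucuronic acid, 3 of 5 genes were measured, of which 0, 0, 0 and 1 rose and 2, 2, 1 and 1 fell (medians -0.24, -0.30, 0.04 and -0.07). The 1 of 3 called at 8 µM after 48 h was near the 28.5% called over all probe sets. Ugp2, which makes UDP-glucose, fell by 0.79, 0.85, 0.27 and 0.41. Ugdh, which oxidises it to UDP-glucuronic acid, fell by 0.24 and 0.30 at 24 h and had changes of 0.04 and -0.07 at 48 h. For sulfate, 7 of 10 genes were measured, of which 1, 0, 1 and 2 rose and 1, 1, 2 and 1 fell (medians -0.07, 0.04, 0.02 and -0.01). The 1 of 7 called at 200 µM after 24 h was below the 18.8% called over all probe sets. Without the deviating array, 1 rose and 2 fell there, with 23.85% of all probe sets called. Papss2, which makes the donor PAPS, fell by 0.75, 0.78, 0.60 and 0.65. For glutathione, all 12 genes were measured, of which 1, 3, 2 and 4 rose and 5, 3, 6 and 4 fell (medians -0.20, -0.15, -0.22 and -0.03). Cth, which makes cysteine from cystathionine, fell by 1.22, 0.48, 1.55 and 0.57, and was higher at 200 µM than at 8 µM by 0.74 and 0.98 at 24 h and 48 h. Mat1a, which makes S-adenosylmethionine, fell at 8 µM by 1.26 and 1.03, had changes of -0.26 and -0.11 at 200 µM, and was higher at 200 µM than at 8 µM by 1.00 and 0.92. Gclc, the catalytic subunit that limits glutathione synthesis, fell by 0.36 and 0.70 at 24 h and by 0.22 at 200 µM after 48 h, and had a change of 0.13, not called, at 8 µM after 48 h. Unlike Cth and Mat1a, Gclc was lower at 200 µM than at 8 µM, by 0.34 and 0.35 (adjusted p = 0.00406 and 0.00233). Ggct, of glutathione breakdown, rose by 0.50, 0.40, 0.60 and 0.61.

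Among transporters of conjugates, 14 of 15 genes were measured, of which 1, 1, 2 and 3 rose and 6, 5, 7 and 5 fell (medians -0.32, -0.10, -0.19 and -0.05). Without the deviating array, 2 and 3 rose and 6 and 6 fell at 48 h (medians -0.07 and 0.01). Abcc2, the canalicular pump for glucuronide and glutathione conjugates, fell by 1.27, 0.53, 1.62 and 0.67, and was higher at 200 µM than at 8 µM by 0.74 and 0.95. Abcc3, a basolateral pump, fell by 0.58, 0.71, 0.51 and 0.64, and the uptake carrier Slco1a1 by 0.61, 0.64, 1.05 and 1.07. Abcg2, which exports sulfates, rose by 0.57, 0.53, 0.81 and 0.69. Of 9 genes that process conjugates further, 1, 1, 1 and 2 rose and 2, 1, 1 and 3 fell (medians -0.01, -0.10, 0.11 and -0.07). At 200 µM after 24 h this was near the 18.8% called over all probe sets. At 8 µM after 48 h it was below the 28.5% called over all probe sets. Anpep, an aminopeptidase of the mercapturate route, rose by 1.07, 0.68, 1.82 and 1.53, and Acy3, a deacylase of mercapturates, fell by 0.59, 0.45, 0.77 and 0.52. Of 14 measured of 17 genes of other conjugation reactions, 3, 2, 5 and 3 rose and 4, 4, 4 and 2 fell (medians -0.12, -0.06, 0.02 and 0.07), and Nat8, which acetylates cysteine conjugates, fell by 1.24, 1.10, 0.87 and 0.99.

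Of 20 measured of 25 receptors and transcription factors of drug metabolism, 3, 2, 4 and 5 rose and 6, 7, 10 and 8 fell (medians -0.16, -0.21, -0.31 and -0.11). Nr1h4, the bile acid receptor, rose by 1.24, 0.99, 1.14 and 1.15, and Rxrg, an RXR subtype, by 1.48, 1.15, 1.46 and 1.22. Foxa3, a liver-enriched factor, fell by 0.49, 1.07, 0.69 and 1.12, and Nr3c1, the glucocorticoid receptor, by 0.54, 0.47, 0.50 and 0.50. Ppara was below the filter. When the deviating array was left out, the genes of these lists named as risen or fallen kept their calls at 48 h, and Ugdh at 200 µM was called lower as well (-0.16). The counts and medians of the lists at 48 h shifted in that setting. Medians at 8 µM and 200 µM became -0.04 and -0.16 for UDP-glucuronic acid and -0.01 and -0.03 for sulfate. They became -0.26 and -0.06 for glutathione and -0.29 and -0.05 for the receptors and transcription factors. For further processing of conjugates they became 0.14 and -0.11, and for other conjugation reactions 0.07 and 0.05.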

How the data were processed

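Gene expression was measured on Affymetrix rat arrays, 1 for each of 30 wells. The deposited values are MAS5 signal intensities on a linear scale, per the submitters' processing notes; the MAS5 version, scaling target and chip definition are not given in the sources used here. Probe sets were named from the platform annotation of 2016. Of 31099 probe sets, 57 were controls, 20832 had 1 symbol, 436 several and 9780 none; the RefSeq tables (GRCr8) matched 41 of the 42 member genes, all but Sult1e1.

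From the deposited intensities, log2(signal + 16) was computed for the 21282 probe sets with a signal above 281, the 40th percentile of all values, on at least 5 of 30 arrays. One model with a mean for each of the 6 groups was fitted in limma 3.58.1 (R 4.3.3) with a variance trend, and p-values were adjusted over all 21282 probe sets by the Benjamini-Hochberg method. The pseudocount makes changes of dim probe sets look smaller than they are. The number of arrays limits the precision; each group has 5. Summaries used Python 3.11.15, pandas 2.3.3, numpy 2.4.6 and scipy 1.17.1, and figures matplotlib 3.10.9. The fit was tested on simulated data.

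The members and gene lists were chosen with earlier results of these data known. Signals on every array are given for the members with the 14 largest moderated t statistics in the 4 comparisons with vehicle, 1 probe set per gene, and for the leading member of each family, 18 in all; other members called in a comparison are named with their change, the rest with their range. Of each gene list, up to 4 genes with the largest moderated t statistics may be named, with 1 probe set per gene. Replicate numbers follow the order of the samples and pair nothing. Promoter windows cover 250 bases before the start; the element shared by the Ugt2 promoters was chosen after the sequences had been seen. The alternatives were 2 other pseudocounts, 2 filters, 2 scalings, an added fold threshold, 1 probe set per gene, no variance trend, array weights, fits on only the arrays compared, a block on array numbers and each array left out. Median centring without 1 vehicle array was added after seeing the data.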

Additional observations from a re-analysis of the deposited data

Results flagged for a closer look

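Among the 18 members described in full, 9 of 108 groups of 5 wells held a well that lay far from the other 4 by Dixon's test, which chance alone gives in about 1 in 20 groups. In vehicle at 48 h, replicate 4 was the lowest well for 4 genes. It read 12644 for Gsta3, where the others lay between 16797 and 17696, and 11342 for Gsta4, where the others lay between 16997 and 18702. It read 13748 for Gsto1 against 20725 to 21249 in the others, and 2161.5 for Ugt2b10 against 2619 to 2811. This is the array that stood apart over all probe sets.

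At 200 µM after 48 h, replicate 5 was the farthest well for 4 genes. It was highest for Sult1c3 at 4835 (others 2933 to 3200.2), for Gstt3 at 21666 (others 14830.2 to 16190.1) and for Gstm7 at 7729.9 (others 5719 to 6171), and lowest for Sult6b2 at 1163.8 (others 1534 to 1707). In each case the well lay on the far side from vehicle. At 8 µM after 48 h, replicate 5 was the highest well for Sult1c3 at 9017 (others 4610 to 5275).

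The effect of treatment differed between 48 h and 24 h in 8 comparisons of members described in full. At 8 µM the difference was -0.41 for Ugt2b35 (adjusted p = 0.0443), 1.04 for Sult1c3 (adjusted p = 0.0155), and -1.12 and -1.25 for the higher-numbered and lower-numbered Ugt2b probe sets (adjusted p = 5.02e-05 and 0.00322). At 200 µM it was 0.44 for Gsta3 (adjusted p = 0.0209), 0.67 for Gstt3 (adjusted p = 0.0177), and -0.79 and -0.92 for the same 2 Ugt2b probe sets (adjusted p = 0.00624 and 0.0484). All these p-values are from limma.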

How the results depend on the processing

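The labels give no replicate numbers shared between groups, and a fit with runs of 6 array numbers as a replicate block called 21, 20, 23, 22, 3, 5, 4, 4 and 7 members in the 9 comparisons (both doses against vehicle at 24 h and then at 48 h, the doses against each other at both times, the time dependence of the 8 µM and 200 µM effects, and vehicle over time), against 20, 18, 23, 21, 3, 5, 4, 4 and 6. Median centring of the arrays left 13 calls at each dose after 24 h, 14 at 8 µM and 17 at 200 µM after 48 h, 1 and 2 between doses at 24 h and 48 h, 1 for the change over time at 8 µM and 3 for vehicle over time. For the change over time at 200 µM it left 0 by limma, with 8 members at an unadjusted p below 0.05 and 4 called after quantile normalization. It also moved the median change of all probe sets at 48 h to 0.10 at both doses, from -0.10 and -0.07, and gave 3109 probe sets higher and 1185 lower at 8 µM after 48 h, against 2714 and 3350. At 200 µM after 48 h it gave 2895 higher and 1097 lower, against 2686 and 2931. After 24 h it gave 1236 higher and 1028 lower at 8 µM, against 1855 and 2235. The numbers at 200 µM after 24 h were 1057 and 1043, against 1852 and 2148. Fewer probe sets of the whole array were thus called in each comparison with vehicle. With median centring and without vehicle replicate 4 at 48 h, a setting chosen after seeing the data, the counts were 21, 24, 22, 23, 3, 5, 5, 3 and 8, and the medians at 48 h were -0.01. A required fold change of 1.5 left 12 calls at each dose after 24 h, 14 at 8 µM and 15 at 200 µM after 48 h, 1 between doses at 24 h and 3 for vehicle over time. Between doses at 48 h, 3 members were called with only the arrays compared, 9 with array weights and 8 without vehicle replicate 4 at 48 h. For the change over time at 200 µM, 2 were called with only the arrays compared, 2 with no variance trend and 2 without vehicle replicate 3 at 24 h. Leaving out each array in turn gave 17 to 23, 15 to 24, 20 to 24, 20 to 23, 3 to 3, 4 to 8, 3 to 6, 2 to 5 and 6 to 8 calls in the order above. Apart from median centring and the fit without vehicle replicate 4 at 48 h, numbers of all probe sets called are not given here. Apart from the added alternative's own construction, the cause of these shifts was not tested.

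Among the named members, 2945 values under an alternative kept their direction and side of the threshold, 39 gained a call, 33 lost one and 7 changed sign. None of the 7 was called. They were Gstz1 at 8 µM after 48 h with median centring (0.10), Gstz1 at 200 µM after 48 h with median centring (0.16) and without 200 µM replicate 1, 3 or 4 or vehicle replicate 5 (arrays left out in turn gave -0.046 to 0.029), and Gsto1 at 200 µM after 48 h with median centring (0.047). Dim probe sets limit what could be seen: 5 members were not tested, and the standard errors of Sult2b1, Sult4a1, Gstp3 and Ugt2b7 were 0.30 to 0.47.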
